A study of Mus musculus with 16 samples.

Results

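The genes described here are 32 mouse genes that make cholesterol and fatty acids or control how much of either is made. They were chosen by name: every probe whose gene symbol in the platform annotation is one of the 32 was taken. Of the 32 genes, 29 had at least 1 probe, with 39 probes in all among the 25697 on the array. Acat2, Mvk and Fdft1 were not analysed here. The probe of Sc5d, the sterol desaturase late in the pathway, was detected on 0 of 16 arrays and was not tested. The remaining 28 genes, with 35 probes, were tested among 9107 genes in all. A gene with several tested probes is represented by the brightest.

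The samples were mouse embryonic stem (ES) cells, profiled on Illumina bead arrays to compare the loss of heparan sulfate sulfation with a block of FGF receptors. Untreated wild-type CCE cells formed the first group. A second group of the same cells received 20 mM sodium chlorate for 24 h, which blocks the sulfation of heparan sulfate and other molecules. The third received 5 µM SU5402, an FGF receptor inhibitor, also for 24 h. The fourth was untreated Ndst1/2-/- ES cells, deficient in 2 enzymes of heparan sulfate N-sulfation, Ndst1 and Ndst2. All 4 groups grew on gelatin in medium with 15% serum and 1000 IU/ml of LIF. The labels name the wild-type line as CCE and give no parent line for the knockout, so genotype and line cannot be told apart. Each group had 3 cultures, labelled as biological replicates, and the third was measured on 2 arrays that were averaged.

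Cholesterol is built from acetyl-CoA through mevalonate to squalene, which is closed into the ring sterol lanosterol and then trimmed, reduced and desaturated to cholesterol. Fatty acids are built from the same acetyl-CoA by a carboxylase and a synthase, and elongases and desaturases then lengthen the chains and add double bonds. Both routes are controlled by the SREBP transcription factors, which the escort protein Scap carries out of the endoplasmic reticulum when sterols are scarce and which the Insig proteins hold back when sterols are plentiful. SREBPs bind sterol elements in promoters, usually beside CCAAT boxes and GC boxes that bind NF-Y and Sp1.

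Promoters of 25 of the 32 genes, in 33 windows of 250 bases before to 50 after a RefSeq start on GRCm38.p6, were searched on both strands for 4 short motifs. The sterol element core, spelled TCAC, any base, then CCAC, was found in 1 of the 33 windows, that of Hmgcs1, and in 1.24% of all 32851 promoter windows of the same length. CCAAT was in 21 of the 33 windows (63.6%, against 37.4% of all), GGGCGG in 25 (75.8%, against 35.7%), and the E-box CACGTG in 6 (18.2%, against 7.15%). The 4 motifs did not overlap one another in the windows shown. The following 3 windows are shown because Hmgcs1 holds the sterol element, Ebp rose with both inhibitors and Msmo1 rose in Ndst1/2-/- cells. They were chosen after the values were seen, and capitals mark every match to the 4 motifs on either strand (ATTGG is CCAAT, and CCGCCC is GGGCGG, read from the other strand).
Hmgcs1 at chr13:119690101-119690400, plus strand: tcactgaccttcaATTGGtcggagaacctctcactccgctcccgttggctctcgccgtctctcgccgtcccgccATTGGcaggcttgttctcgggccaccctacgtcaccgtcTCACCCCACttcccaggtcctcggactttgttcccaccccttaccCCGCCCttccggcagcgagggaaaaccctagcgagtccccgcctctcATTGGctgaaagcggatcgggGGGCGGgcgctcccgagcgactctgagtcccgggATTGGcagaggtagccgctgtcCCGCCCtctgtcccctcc
Ebp at chrX:8193463-8193762, minus strand: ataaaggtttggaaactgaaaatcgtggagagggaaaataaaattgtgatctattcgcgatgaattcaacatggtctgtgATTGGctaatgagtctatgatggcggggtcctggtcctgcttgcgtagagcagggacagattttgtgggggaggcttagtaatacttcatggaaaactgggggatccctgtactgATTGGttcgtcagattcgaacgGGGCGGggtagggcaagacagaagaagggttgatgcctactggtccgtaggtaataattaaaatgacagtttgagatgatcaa
Msmo1 at chr8:64733529-64733828, minus strand: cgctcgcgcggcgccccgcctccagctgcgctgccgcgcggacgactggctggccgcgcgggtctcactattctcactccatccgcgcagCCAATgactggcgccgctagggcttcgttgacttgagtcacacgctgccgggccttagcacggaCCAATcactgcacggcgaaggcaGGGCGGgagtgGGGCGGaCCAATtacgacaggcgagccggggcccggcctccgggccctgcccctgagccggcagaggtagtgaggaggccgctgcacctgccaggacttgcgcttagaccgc
In Hmgcs1 the sterol element lay at -137 to -129 from the start, with 4 CCAAT boxes and 3 GC boxes in the window. Ebp had 2 CCAAT boxes and 1 GC box. Msmo1 had 3 CCAAT boxes, the nearest at -55 to -51, and 2 GC boxes. A match describes the letters in the window and is no measured binding site.

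The cells expressed ES cell markers. All 10 ES cell markers on the list used, among them Pou5f1, Nanog and Zfp42, were detected in every group. Their summed intensity ranged from 71000 to 76100 over the 12 cultures. That sum weighs most on the brightest marker, Dppa5a (group means of 15.19 to 15.27 on the log2 scale), and can hide changes of dimmer ones. Single ES cell markers did move with the groups: 8 of the 10 were called with chlorate, 7 with SU5402 and 7 in Ndst1/2-/- cells, beside 30%, 25.2% and 64.3% of all genes. Against untreated cells Utf1 changed by -1.50, -1.10 and -0.94 in that order, Nanog by 0.92, 0.78 and 0.68, and Dnmt3l by -0.68, -0.66 and -1.18. Mean log2 intensity of Tdgf1 was 10.345 untreated, 9.836 with chlorate, 9.825 with SU5402 and 9.205 in Ndst1/2-/- cells. That of Esrrb was 11.748, 12.16, 12.201 and 12.86. Fibroblast genes Col1a2, Col3a1, Postn, Dcn and Lum were detected on no array, but Twist1 was on 16 arrays, Thy1 on 12, and Col1a1 and Pdgfra on 7 each. These 4 were tested, and 4 fell in Ndst1/2-/- cells, 2 with chlorate and 1 with SU5402. Mean log2 intensity of Thy1 was 6.504 untreated and 4.567 in Ndst1/2-/- cells. The fibroblast sum was 183 to 221 in untreated, 150 to 167 in chlorate, 141 to 170 in SU5402 and 88.8 to 101 in Ndst1/2-/- cultures. Of 8 adipocyte and hepatocyte markers, 6 were detected on no array, including Fabp4, Plin1 and Alb. The tested one, Lpl, a lipase also made by other cells, changed by 0.80 with chlorate, 0.85 with SU5402 and -0.40 in the knockout. That list's summed intensity was 292 to 331 in untreated, 474 to 523 in chlorate, 500 to 560 in SU5402 and 233 to 250 in Ndst1/2-/- cultures. Arrays detected 12022 to 12821 probes each. No probe of Ndst1 or Ndst2 was analysed here, so the knockout label was not checked against its target genes.

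Against untreated wild-type cells, 15 of the 28 tested genes changed in Ndst1/2-/- cells, 7 with chlorate and 4 with SU5402 (limma, Benjamini-Hochberg adjusted p under 0.05 over all 13377 tested probes). Of these, 6 rose and 1 fell with chlorate, beside 15.3% of all tested genes that rose and 14.8% that fell. With SU5402, 3 rose and 1 fell, beside 12.9% and 12.3% of all genes. In Ndst1/2-/- cells 9 rose and 6 fell, beside 30.5% and 33.8%. Over both directions the called share of the 28 genes was 25%, 14.3% and 53.6%, near or below the 30%, 25.2% and 64.3% of all genes. Whether the counts set these genes apart from others was not tested. Of the 28 genes, 8 were called in none of the 3 comparisons, 14 in 1, 6 in 2 and 0 in all 3, where 28.3%, 40.4%, 15% and 16.3% of all genes were. The median change over the 28 genes was 0.10 with chlorate, 0.001 with SU5402 and 0.11 in Ndst1/2-/- cells on the log2 scale, where the median over all genes was -0.004, -0.003 and -0.004. For 21.9% of all genes the 3 chlorate cultures lay wholly above the untreated ones, and for 22.5% wholly below. The shares were 20.4% and 20.3% with SU5402 and 33% and 36.2% in Ndst1/2-/- cells. Of the 28 genes, 7 and 1, 7 and 3, and 14 and 7 did so in that order. Such gaps between cultures were common, so those given below only describe the values.

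**Figure D1:**
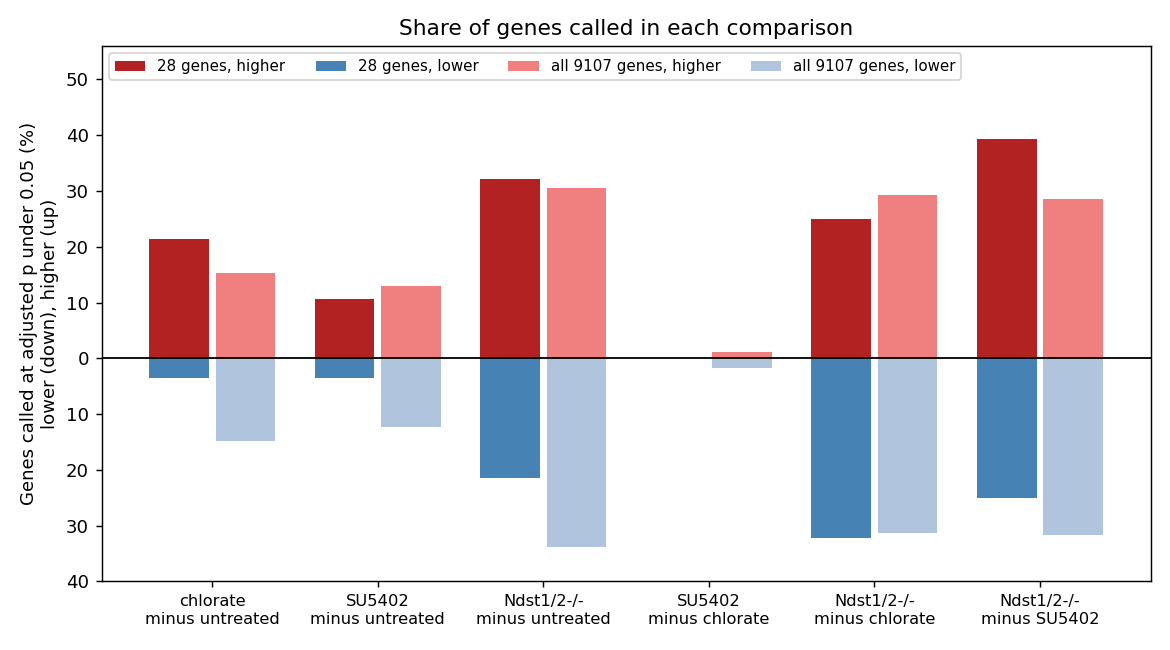
Percent of genes called higher (upward bars) or lower (downward bars) at an adjusted p under 0.05 in each of the 6 comparisons between groups. Dark bars are the 28 tested sterol and fatty acid genes and pale bars are all 9107 tested genes. In Ndst1/2-/- minus untreated the 28 genes were called higher about as often as all genes (9 of 28 against 30.5%), and in SU5402 minus chlorate 0 of 28 were called.

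**Figure D2:**
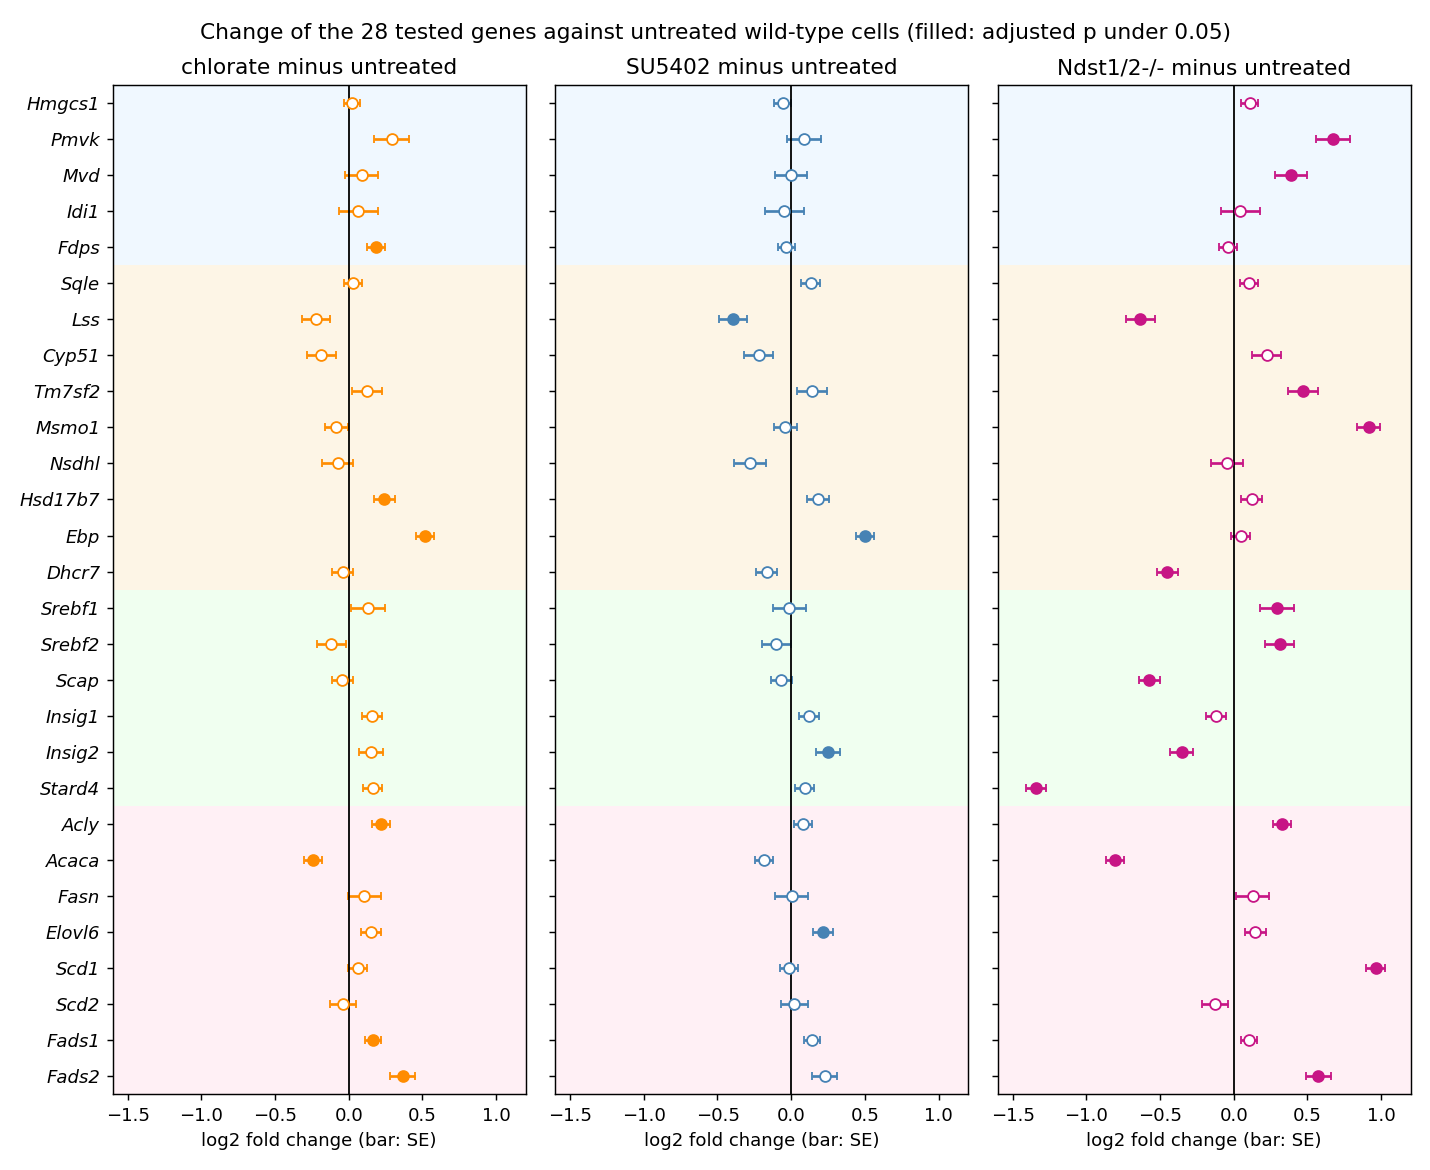
Log2 fold change of each of the 28 tested genes against untreated wild-type cells in chlorate, SU5402 and Ndst1/2-/- cultures, with 3 cultures per group. Points are means, bars are moderated standard errors, filled points have an adjusted p under 0.05, and the background shading parts early sterol genes, late sterol genes, control and transfer genes and fatty acid genes from top to bottom. Changes in Ndst1/2-/- cells ran from -1.34 for Stard4 to 0.96 for Scd1, and those with the inhibitors stayed between -0.40 and 0.52.

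In Ndst1/2-/- cells, 3 of the 4 role groups (early sterol, late sterol, control and transfer, fatty acid) held called genes in both directions. Of all genes, 64.3% were called in this comparison (30.5% higher and 33.8% lower), and whether any role group stood apart was not tested. Among early sterol genes, Pmvk and Mvd rose and 3 of the 5 tested genes were not called. Among late sterol genes, Msmo1 and Tm7sf2 rose while Lss and Dhcr7 fell, and 5 of 9 were not called. Among the control and transfer genes, Stard4, Scap and Insig2 fell and Srebf1 and Srebf2 rose, leaving 1 of 6 not called. Among fatty acid genes, Scd1, Fads2 and Acly rose and Acaca fell, with 4 of 8 not called. The 15 changes ranged from a 2.53-fold fall to a 1.95-fold rise, and 1 of the 28 genes, Stard4, changed at least 2-fold.

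The early pathway opens with Hmgcs1, which joins acetyl groups into HMG-CoA. Its normalized log2 intensity was 12.54, 12.59 and 12.54 in the untreated cultures and 12.62, 12.65 and 12.72 in the Ndst1/2-/- cultures. The knockout cultures lay above all untreated ones, yet the difference of 0.11 (SE 0.06) was not called (adjusted p = 0.112, limma with Benjamini-Hochberg). It was called in some alternatives, among them the authors' processed table and arrays scaled to their median (limma adjusted p = 0.0126 and 0.0328). Pmvk, which adds the second phosphate to mevalonate, gave 6.88, 7.03 and 6.94 untreated, 7.23, 7.46 and 7.02 with chlorate, 6.80, 7.23 and 7.06 with SU5402, and 7.67, 7.67 and 7.52 in Ndst1/2-/- cells. All 3 knockout cultures were above the other 9, and the rise over untreated was 0.68 on the log2 scale, or 1.60-fold (SE 0.12, limma adjusted p = 0.000244). Mvd, the decarboxylase that makes isopentenyl diphosphate, read 7.34, 7.60 and 7.43 untreated and 7.88, 7.97 and 7.70 in the knockout. Its groups did not overlap and it rose by 0.39 (SE 0.11, limma adjusted p = 0.00719). Idi1, which isomerises that product, and Fdps, which condenses it to farnesyl diphosphate, differed from untreated by 0.05 (SE 0.13) and -0.04 (SE 0.06) and were not called.

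Squalene enters the late pathway through Sqle, its epoxidase, which was not called in any comparison by either of its 2 probes. Lss, which folds the epoxide into lanosterol, read 7.84, 8.05 and 8.06 untreated, 7.96, 7.61 and 7.71 with chlorate, 7.63, 7.67 and 7.47 with SU5402, and 7.41, 7.26 and 7.39 in Ndst1/2-/- cells. The knockout cultures were below all 9 wild-type cultures, with a change of -0.63 (SE 0.10, limma adjusted p = 8.35e-05), a 1.55-fold fall. Further along, Msmo1, the oxidase that removes methyl groups from the ring, went the other way. Its values were 8.91, 8.76 and 9.00 untreated, 8.93, 8.69 and 8.79 with chlorate, 8.94, 8.83 and 8.77 with SU5402, and 9.82, 9.80 and 9.80 in the knockout. No knockout culture came near a wild-type one, and the rise was 0.92 (SE 0.08), or 1.89-fold, with a limma adjusted p of 4.39e-07.

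The oxidase Cyp51, a lanosterol demethylase, read 8.62, 8.40 and 8.42 untreated and 8.72, 8.63 and 8.77 in the knockout. The knockout values lay just above the untreated ones, and the rise of 0.23 (SE 0.10) was not called (limma adjusted p = 0.0651). It was called in some alternatives, among them no background correction, arrays scaled to their median and the authors' processed table (limma adjusted p = 0.0317, 0.0385 and 0.0442). Tm7sf2, a sterol reductase, was near the detection limit, with 1 of 4 arrays detecting it in untreated cells and 4 of 4 in the knockout. Its cultures read 4.97, 4.91 and 4.94 untreated and 5.31, 5.49 and 5.43 in the knockout, a rise of 0.47 (SE 0.10, limma adjusted p = 0.00139). It passed the detection filter mainly through the group in which it was higher. Dhcr7, the reductase of the last step in one branch, read 7.12, 7.19 and 7.30 untreated and 6.69, 6.87 and 6.69 in Ndst1/2-/- cells. All knockout cultures were lower, by -0.45 (SE 0.07, limma adjusted p = 0.000116). Nsdhl and Hsd17b7, which with Msmo1 carry out the demethylation, differed by -0.04 (SE 0.11) and 0.12 (SE 0.07) and were not called. Ebp, the sterol isomerase, differed by 0.05 (SE 0.06).

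Stard4 showed the greatest change of the 28 genes in these cells. It encodes a soluble carrier that moves cholesterol between membranes, and in the wild type it read 8.85, 8.87 and 8.94 untreated, 8.91, 9.12 and 9.12 with chlorate, and 8.98, 8.93 and 9.04 with SU5402. In Ndst1/2-/- cells it read 7.58, 7.52 and 7.55, well below all 9 wild-type cultures. The change was -1.34 (SE 0.07), or 2.53-fold lower, with a limma adjusted p of 2.6e-09. Scap, the escort of SREBP, fell by 0.57 (SE 0.07, limma adjusted p = 1.22e-05), from 7.27, 7.32 and 7.33 to 6.64, 6.86 and 6.70. Again no knockout culture overlapped a wild-type one. Srebf2, the SREBP that mainly drives sterol genes, read 8.67, 9.03 and 8.75 untreated and 9.09, 9.19 and 9.11 in the knockout, without overlap and with a rise of 0.31 (SE 0.10, limma adjusted p = 0.0148). Srebf1, which mainly drives fatty acid genes, was close to the detection limit (detected on 2 of 4 untreated and 3 of 4 knockout arrays). It rose by 0.29 (SE 0.11, limma adjusted p = 0.0392), with untreated values of 4.82, 5.26 and 4.88 overlapping the knockout's 5.08, 5.44 and 5.33. In the authors' processed table the Srebf1 difference was 0.08 and not called (adjusted p = 0.585), nor was it called with no detection filter (adjusted p = 0.0716). Both SREBP calls depended on single cultures, and without untreated culture 1 the limma adjusted p was 0.153 for Srebf1 and 0.0665 for Srebf2. Both calls were also lost without untreated culture 3 or knockout culture 2, and that of Srebf1 without knockout culture 3 or chlorate culture 3.

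Of the 2 Insig proteins that retain Scap in the endoplasmic reticulum, Insig2 fell and Insig1 was not called, each at its brightest probe. Insig2 read 8.13, 7.88 and 8.00 untreated, 8.26, 8.06 and 8.15 with chlorate, 8.38, 8.16 and 8.22 with SU5402, and 7.69, 7.62 and 7.64 in Ndst1/2-/- cells. The knockout cultures were the lowest 3 of the 12, and the change from untreated was -0.35 (SE 0.08, limma adjusted p = 0.00194). A second Insig2 probe changed by -0.09 (SE 0.07) and was not called against untreated. Insig1 differed by -0.12 (SE 0.07, limma adjusted p = 0.148) at its brightest probe. Its dimmer tested probes changed by -0.11 (SE 0.08) and -0.24 (SE 0.11) and were not called. The mean of its tested probes was called lower, by -0.16 (limma adjusted p = 0.0412).

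The fatty acid route begins with Acly, which splits citrate into acetyl-CoA. It read 12.55, 12.55 and 12.47 untreated and 12.87, 12.84 and 12.84 in the knockout, and it rose by 0.33 (SE 0.06, limma adjusted p = 0.000455). Acaca, the carboxylase that commits acetyl-CoA to fatty acids, read 10.25, 10.40 and 10.37 untreated, 10.14, 10.04 and 10.12 with chlorate, 10.17, 10.11 and 10.19 with SU5402, and 9.61, 9.45 and 9.55 in Ndst1/2-/- cells. All inhibitor cultures lay below the untreated ones and all knockout cultures below those. The SU5402 difference from untreated was not called (limma adjusted p = 0.0517), nor was that between the inhibitors. The knockout differed from untreated by -0.81 (SE 0.06), a 1.75-fold fall, with a limma adjusted p of 1.98e-07. Fasn, the synthase itself, read 5.07 to 5.33 untreated and 5.05 to 5.54 in the knockout, overlapped between groups and was not called in any comparison.

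Among the desaturases, Scd1 and Fads2 rose. Scd1, which places the first double bond, read 7.76, 7.71 and 7.75 untreated, 7.81, 7.74 and 7.85 with chlorate, 7.78, 7.69 and 7.71 with SU5402, and 8.59, 8.70 and 8.81 in the knockout. All 9 wild-type cultures lay within a narrow band and the knockout far above it, a rise of 0.96 (SE 0.06) or 1.95-fold (limma adjusted p = 4.1e-08). Its paralog Scd2 differed by -0.12 (SE 0.09) and was not called. Fads2, which starts the desaturation of polyunsaturated chains, rose by 0.57 (SE 0.09, limma adjusted p = 6.21e-05), from 6.43, 6.16 and 6.37 to 7.01, 6.88 and 6.79. Fads1, which acts after it, and the elongase Elovl6 differed by 0.10 (SE 0.05) and 0.15 (SE 0.07) and were not called.

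**Figure D3:**
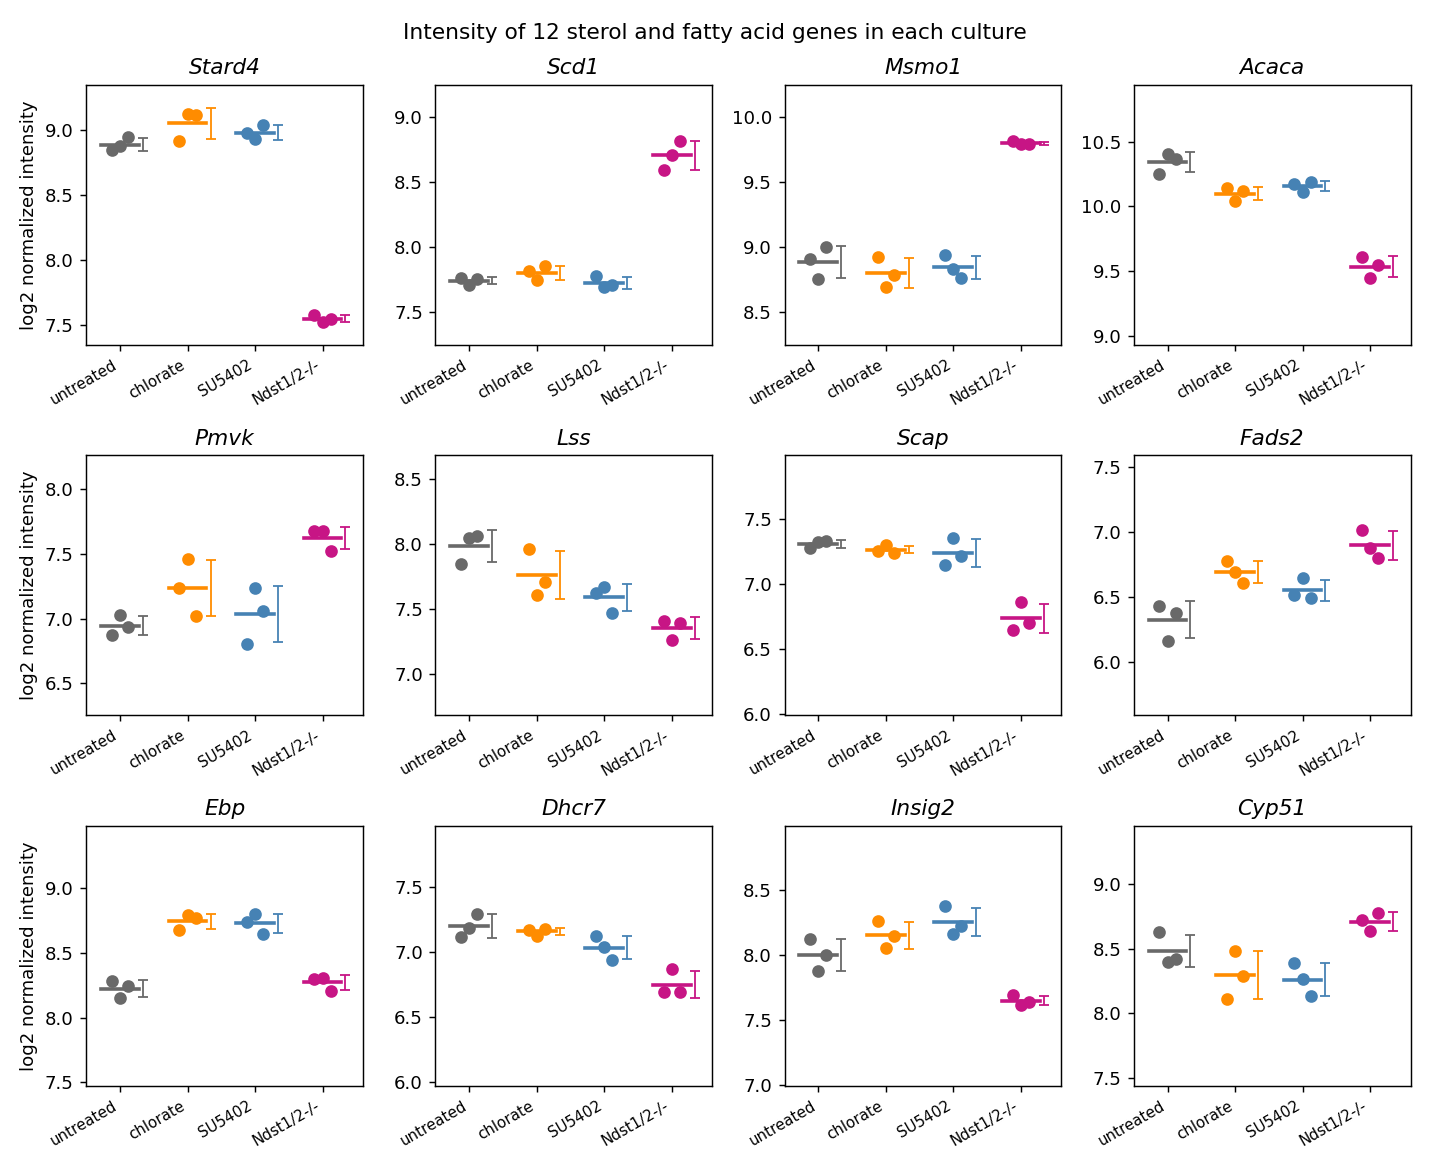
Normalized log2 intensity of 12 sterol and fatty acid genes in each of the 12 cultures, with 3 per group. Points are cultures, horizontal lines are group means, and the bars beside them span 1 SD to either side, with every vertical axis covering the same range of log2 units. Stard4 and Acaca were lowest and Scd1 and Msmo1 highest in the 3 Ndst1/2-/- cultures, and Ebp was high only in the chlorate and SU5402 cultures of the 4 groups.

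With chlorate, 3 sterol genes and 3 fatty acid genes rose and 1 fatty acid gene fell, all by less than 1.5-fold. Ebp, which moves the double bond in the second ring of the sterol, rose most. It read 8.28, 8.15 and 8.24 untreated and 8.67, 8.79 and 8.76 with chlorate, so that the groups were well apart. The rise was 0.52 (SE 0.06) or 1.43-fold, with a limma adjusted p of 5.47e-05. Fads2 came next, at 6.77, 6.69 and 6.61 with chlorate, a rise of 0.37 (SE 0.09, limma adjusted p = 0.00581). Acaca was the gene that fell, by 0.24 (SE 0.06, limma adjusted p = 0.0122), and its chlorate cultures did not overlap the untreated ones.

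The other 4 chlorate calls were small. Hsd17b7 rose by 0.24 (SE 0.07), Acly by 0.22 (SE 0.06), Fdps by 0.18 (SE 0.06) and Fads1 by 0.17 (SE 0.05), with limma adjusted p-values of 0.0242, 0.0172, 0.0336 and 0.032. Their chlorate cultures lay above all untreated ones, as was so for 21.9% of all genes. When arrays were scaled to their median in place of quantile normalization, these 4 genes were no longer called (limma adjusted p = 0.232, 0.436, 0.615 and 0.672), and 2 of the 28 genes were called higher and 1 lower. Of all called probes, 50.1% were higher with chlorate in the quantile-normalized values and 37.7% after median scaling. Of the 7 calls, 3 remained without untreated culture 2, 3 without chlorate culture 1, 3 without chlorate culture 3, and 5 without untreated culture 1 or 3. Of the 6 tested control and transfer genes, 0 were called with chlorate by limma (2 at an unadjusted p under 0.05), and their differences ran from -0.12 to 0.16. Among all genes, 30% were called with chlorate and 40.8% had an unadjusted p under 0.05.

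SU5402 moved 4 of the 28 genes. Ebp rose again, to 8.73, 8.79 and 8.65, a rise of 0.50 (SE 0.06) or 1.42-fold over untreated (limma adjusted p = 0.000101). Lss fell by 0.40 (SE 0.10, limma adjusted p = 0.0103), with all SU5402 cultures below the untreated ones. Insig2 rose by 0.25 (SE 0.08, limma adjusted p = 0.0388) and Elovl6, which lengthens palmitate, by 0.22 (SE 0.07, limma adjusted p = 0.0393). Elovl6 read 9.77, 9.79 and 9.80 untreated and 10.04, 9.95 and 10.03 with SU5402, without overlap. The Insig2 and Elovl6 calls were lost after median scaling (limma adjusted p = 0.145 and 0.304), and in 12 and 9 of 21 alternatives to the main processing. A second Insig2 probe changed by 0.11 (SE 0.07) and was not called. The mean of the Insig2 probes differed by 0.18 and was not called (limma adjusted p = 0.0591). Of the 4 calls, 2 remained without untreated culture 2, untreated culture 3, SU5402 culture 1 or SU5402 culture 3. After median scaling 1 gene was called higher and 2 lower, and on all 16 arrays 5 higher and 5 lower. Acaca, at -0.19 (SE 0.06), missed the threshold with a limma adjusted p of 0.0517.

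The inhibitors were compared directly because both act on the same wild-type cells for the same time. By limma, 0 of the 28 genes were called between SU5402 and chlorate, where 1.13% of all genes were higher and 1.73% lower with SU5402. At an unadjusted p under 0.05, 2 of the 28 genes differed (17.1% of all genes did), and these were Fdps and Acly, picked out after their values were seen. Fdps was lower with SU5402 by 0.22 (95% interval of the difference, -0.34 to -0.09), and Acly by 0.14 (-0.27 to -0.01). For Ebp the difference was -0.02, with an interval of -0.15 to 0.12. All 28 intervals lay within 0.5 log2 units of 0 on either side. So did 25 of 28 for chlorate against untreated and 25 of 28 for SU5402 against untreated. Lying within this limit therefore does not show that the inhibitors acted alike. Fdps passed the threshold by limma without background correction, in the authors' processed table and on all 16 arrays (1 of 28 in each).

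Ndst1/2-/- cells were also set directly against each inhibitor, comparisons that the untreated cultures enter only through the shared normalization and estimate of spread. Against chlorate, 7 were higher and 9 lower in the knockout, where 29.2% and 31.3% of all genes were. After median scaling that balance turned, with 11 higher and 7 lower. Against SU5402, 11 were higher and 7 lower, where 28.5% and 31.6% of all genes were. Ebp was lower in the knockout than with chlorate by 0.47 (SE 0.06, limma adjusted p = 3.08e-05) and lower than with SU5402 by 0.45 (SE 0.06, limma adjusted p = 4.28e-05). It stood at 8.30, 8.30 and 8.21 in the knockout, within the untreated range or just above it. Cyp51, not called against untreated, was higher in the knockout by 0.41 than with chlorate (SE 0.10, limma adjusted p = 0.00325) and by 0.45 than with SU5402 (SE 0.10, limma adjusted p = 0.00188). At its brightest probe Insig1 was lower in the knockout by 0.28 than with chlorate and by 0.24 than with SU5402 (SE 0.07 each, limma adjusted p = 0.00343 and 0.00854). Both Insig1 calls were lost after median scaling (limma adjusted p = 0.14 and 0.129), and against SU5402 the mean of its probes differed by -0.03 (adjusted p = 0.702). Hmgcs1 was higher than with SU5402 by 0.17 (SE 0.06, limma adjusted p = 0.0234), a call lost without knockout culture 3, SU5402 culture 1 or SU5402 culture 3. Fdps was lower than with chlorate by 0.22 (SE 0.06, limma adjusted p = 0.00574), and after median scaling the difference was -0.04 and not called (adjusted p = 0.713).

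Over all 4 groups, 19 of the 28 genes differed by limma's F-test, where 71.3% of all genes did. Differences from untreated are listed for several genes. Between SU5402 and chlorate 0 of the 28 genes were called by limma, so these values give no order of the inhibitors. The comparisons with untreated cells share those 3 control cultures, so the values are given side by side. Insig2 differed by 0.15 with chlorate (not called, limma adjusted p = 0.184), 0.25 with SU5402 and -0.35 in Ndst1/2-/- cells, and the direct difference between knockout and SU5402 was -0.60 (SE 0.08, limma adjusted p = 3.08e-05). Lss differed by -0.22, -0.40 and -0.63 in that order, of which the chlorate value was not called (adjusted p = 0.105). The direct Lss difference between knockout and SU5402 was not called either (limma adjusted p = 0.0508). Acaca differed by -0.24, -0.19 and -0.81, with the SU5402 value not called. Fads2 differed by 0.37, 0.23 and 0.57 in the same order, and its SU5402 value was not called (adjusted p = 0.0707). Between knockout and chlorate Fads2 was not called (limma adjusted p = 0.0522). Stard4 differed by 0.16 and 0.09 with the inhibitors, neither called, against -1.34.

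Different probes of a gene did not always move together. Insig1 had 3 tested probes. Between knockout and SU5402 its 2 dimmer probes differed by 0.06 (SE 0.08) and 0.09 (SE 0.11), opposite in sign to the brightest, and were not called. With SU5402 the brightest differed by 0.12 (SE 0.07) and was not called, while probe ILMN_2606693 read 7.49, 7.20 and 7.18 untreated and 7.10, 6.80 and 6.96 with SU5402. That probe fell by 0.34 (SE 0.11, limma adjusted p = 0.0385), and the remaining probe changed by -0.17 (SE 0.08). Nsdhl had 4 tested probes, whose differences between knockout and untreated ran from -0.06 to 0.25 with no call. Against chlorate the probe ILMN_2594525 was higher in the knockout by 0.32 (SE 0.08, limma adjusted p = 0.00585) and the brightest by 0.03 (SE 0.11). Both Insig2 probes were lower in the knockout than with chlorate, by 0.51 and 0.26, and both passed the threshold there.

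**Figure D4:**
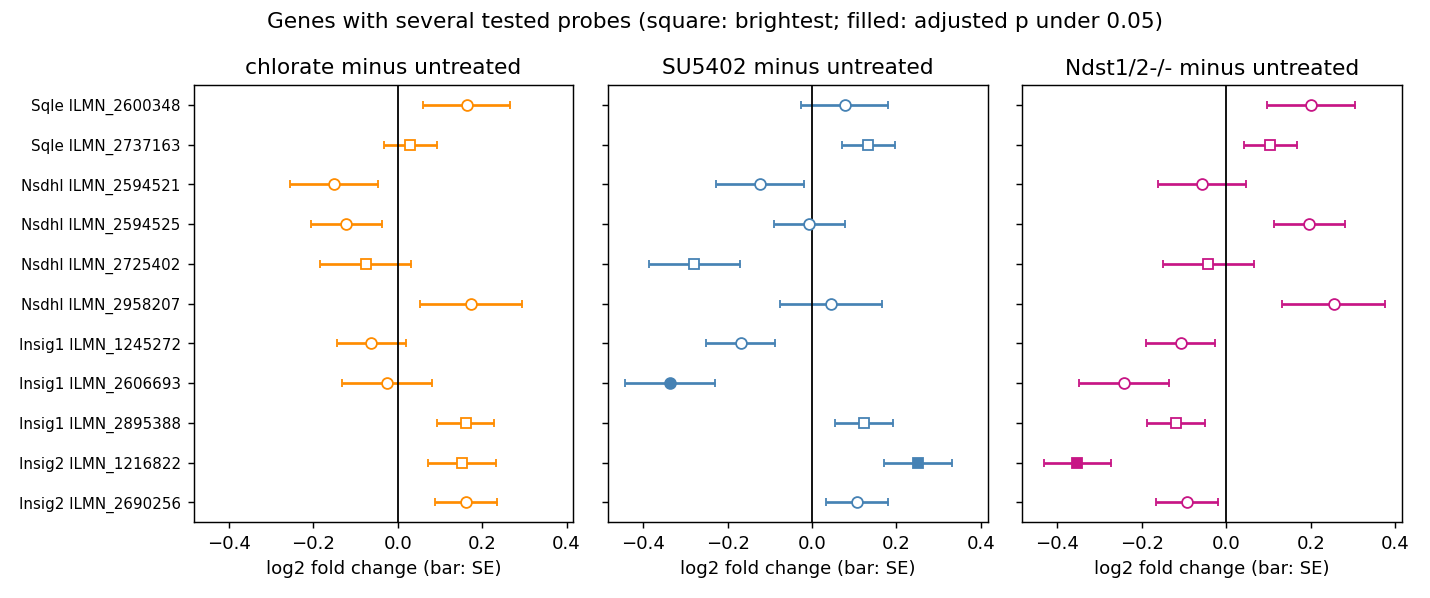
Log2 fold change against untreated of every tested probe of the 4 genes with more than 1 tested probe, with moderated standard errors. Squares are the brightest probe of a gene, circles its other probes, and filled symbols have an adjusted p under 0.05. With SU5402 the brightest Insig1 probe lies at 0.12 and a dimmer one at -0.34.

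Arrays fell into 2 sets by mean intensity, set A from 412 to 454 and set B from 369 to 400, and every group had 2 arrays in each. In every group each set held 1 of the 2 arrays of culture 3, so the sets were not independent. The largest knockout changes and those of Ebp were of like size in both sets. That of Pmvk between knockout and untreated was 0.77 in set A and 0.54 in set B. Stard4 differed between knockout and untreated by -1.36 in set A and -1.35 in set B, Scd1 by 0.93 and 1.04, Msmo1 by 0.83 and 0.94, and Acaca by -0.72 and -0.90. Ebp differed with chlorate by 0.44 and 0.60 and with SU5402 by 0.41 and 0.55. Other cell type markers moved with the groups, and their part in these changes was not tested. The summed intensity of 9 trophectoderm markers was 2550 to 2680 in untreated, 5190 to 5470 in chlorate, 5690 to 5880 in SU5402 and 1780 to 1880 in Ndst1/2-/- cultures, with Elf5 and Hand1 detected on no array. That of 12 primitive endoderm markers was 1280 to 1420, 1920 to 1960, 1760 to 1800 and 1550 to 1620, with Sox17, Foxa2 and Afp detected on no array. These sums hide markers that moved in opposite directions. In Ndst1/2-/- cells 4 of 9 tested primitive endoderm markers rose and 4 fell. Of 7 tested trophectoderm markers, 2 rose and 4 fell there, beside 30.5% and 33.8% of all genes. In such bulk samples, fewer cells of a type and less RNA per cell cannot be told apart.

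Genes around the 32 were counted in 8 lists, to be read beside the 30%, 25.2% and 64.3% of all genes called with chlorate, with SU5402 and in Ndst1/2-/- cells. Of 5 tested genes of other sterol steps, 1 rose with chlorate (20%), 0 were called with SU5402 by limma (1 at an unadjusted p under 0.05), and 3 rose and 2 fell in Ndst1/2-/- cells (100%). Among these, the cytochrome b5 genes Cyb5b and Cyb5a changed in the knockout by 1.14 (SE 0.07) and -0.69 (SE 0.10). Of 7 genes that process SREBP or degrade sterol enzymes, 0 were called with either inhibitor by limma (1 with each at an unadjusted p under 0.05), and in the knockout 3 rose and 1 fell (57.1%). Erlin2 and Erlin1, proteins of the endoplasmic reticulum membrane, rose by 0.50 (SE 0.07) and 0.37 (SE 0.08). Mbtps1, the first protease that cuts SREBP, rose by 0.44 (SE 0.07), and Rnf145, a ubiquitin ligase, changed by -0.76 (SE 0.06). Of 8 genes of isoprenoid branches, 2 rose with each inhibitor (25%), and 2 rose and 3 fell in the knockout (62.5%), with Nus1 of dolichol synthesis changed by -0.67 (SE 0.05) and the farnesyltransferase subunits Fntb and Fnta up by 0.40 and 0.38 (SE 0.05 each). Fnta also rose with chlorate, by 0.25, and with SU5402, by 0.19.

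Of 8 tested genes of sterol uptake and transport, 4 rose and 1 fell with chlorate, 3 rose with SU5402, and 3 rose and 3 fell in Ndst1/2-/- cells. The called shares were 62.5%, 37.5% and 75%, beside 30%, 25.2% and 64.3% of all genes. Apoe, a lipoprotein component, rose by 1.44 in the knockout (SE 0.06, limma adjusted p = 8.48e-10), and Vldlr, a receptor for it, by 1.13 (SE 0.07, limma adjusted p = 2.49e-08). Npc2, which unloads cholesterol in lysosomes, rose in all 3 comparisons, by 0.45 with chlorate, 0.37 with SU5402 and 0.54 in the knockout (SE 0.09 each). Stard5, of the same family as Stard4, changed by -0.76 in the knockout (SE 0.07). Of 3 bile acid and oxysterol genes, 2 were called in each comparison (66.7%), and Cyp7b1, an oxysterol hydroxylase, rose by 1.08 in the knockout (SE 0.09), by 0.32 with chlorate and by 0.41 with SU5402.

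Of 21 other genes of fatty acid synthesis, elongation and activation, 5 rose and 2 fell with chlorate, 5 rose and 3 fell with SU5402, and 5 rose and 10 fell in Ndst1/2-/- cells. The called shares were 33.3%, 38.1% and 71.4%, beside the same 30%, 25.2% and 64.3%. Acsl5, which activates long chains with coenzyme A, changed by -2.38 in the knockout (SE 0.06, limma adjusted p = 4.76e-12), by -0.31 with chlorate and by -0.28 with SU5402. The elongase Elovl4 changed by -1.44 (SE 0.06), the dehydratase Hacd1 by -1.17 (SE 0.09) and Acsl4 by -1.07 (SE 0.08) in the knockout, and none of these 3 was called with an inhibitor. Mid1ip1, which promotes polymerisation of the carboxylase Acaca, changed by -0.77 with chlorate, -0.60 with SU5402 and -0.23 in the knockout (SE 0.08 each). Acss1, which makes acetyl-CoA from acetate in mitochondria, rose by 0.59, 0.58 and 0.95 (SE 0.07 each).

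Of 19 genes of glycerolipid and phospholipid synthesis, 3 rose and 1 fell with chlorate, 4 rose and 1 fell with SU5402, and 5 rose and 8 fell in Ndst1/2-/- cells. The called shares, 21.1%, 26.3% and 68.4%, were near the 30%, 25.2% and 64.3% of all genes. Gpat3, which starts glycerolipid assembly, rose in all 3, by 1.66 with chlorate, 1.52 with SU5402 and 1.30 in the knockout (SE 0.10 each, limma adjusted p = 1.27e-07, 4.77e-07 and 1.54e-07). Dgat2, which makes triglyceride, changed by -0.34, -0.46 and -1.06 (SE 0.07 each). Agpat5 rose by 1.36 and Pcyt1b by 1.04 in the knockout (SE 0.07 each). Of 12 fatty acid oxidation genes, 2 rose with each inhibitor (16.7%), and 4 rose and 5 fell in the knockout (75%). Slc25a20, the carnitine carrier of mitochondria, rose by 0.85, 0.67 and 0.95 (SE 0.06 each), and the dehydrogenases Acadl and Acadvl changed by -1.31 (SE 0.12) and -0.85 (SE 0.09) in the knockout.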

How the data were processed

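Per the file headers, each array has a non-normalized mean intensity over the beads of a probe, deposited beside the probe's detection p-value. Both came from BeadStudio, per the submitters' processing notes. A table of intensity processed by the authors in an unstated way served only as an alternative. The neqc function of limma 3.58.1 in R 4.3.3 corrected background using the detection p-values, added 16, quantile normalized the arrays and took log2. Adding 16 understates changes of dim genes. The 2 arrays of culture 3 were averaged, leaving 12 cultures. Their differences had an SD of 0.176 to 0.19 log2 units, and those of different cultures of a group 0.17 to 0.203, so p-values measure a spread that may be technical. Probes entered the tests when 3 or more cultures had a mean detection p-value below 0.01. A single limma model of the 4 groups gave all comparisons, with errors as moderated SE, and Benjamini-Hochberg adjustment ran over 13377 probes. The number of arrays limits the precision. The model was tested on simulated data. All 32 genes may be named, and from each other pathway list up to 4 called genes of greatest change were named, some with their values in other comparisons. Mid1ip1 and Acss1 were named beyond these 4. Cell type markers were named outside this rule, with their values known. The members and lists were chosen with earlier results of these data known. Other genes or promoters were picked after their values were seen, as stated beside them. Promoter windows were taken from RefSeq.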

Additional observations from a re-analysis of the deposited data

How the results depend on the processing

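No called change of the 28 genes turned sign in any alternative (21 per comparison: background correction, scaling, detection filter, the authors' table, blocks, array sets, averaged probes and each of the 12 cultures left out). Of 3528 gene values under alternatives, 105 lost a call and 71 gained one, and 109 values that had not been called changed sign, none of them above 0.14 in size. Calls kept throughout numbered 1 of 7 with chlorate and 1 of 4 with SU5402 (Ebp in both), 12 of 15 in Ndst1/2-/- against untreated, 10 of 16 against chlorate and 10 of 18 against SU5402. The chlorate count of 7 was 3 with median scaling, 12 on all 16 arrays with array set as a block, 4 in set A, 2 in set B and 3 to 8 with a culture left out. The SU5402 count of 4 was 2 with no detection filter, 10 on all 16 arrays, 1 in set A, 2 in set B and 2 to 5 with a culture left out. Between SU5402 and chlorate the count of 0 was 1 with no background correction, in the authors' table and on all 16 arrays, and between Ndst1/2-/- and SU5402 the 18 fell to 10 in set B (5 higher and 5 lower, and 9 and 9 in the authors' table, in place of 11 and 7). Using all 16 arrays counts culture 3 as 2 samples, and a single set has 2 arrays per group; the cause of the other changes was not tested. With the replicate number as a replicate block the counts were 8, 4 and 15 against untreated, 17 and 18 between the knockout and the inhibitors, 0 between the inhibitors and 19 by the F-test. Same-numbered cultures of different groups correlated at -0.009 to 0.19 in their deviations from group means (median 0.065). Those with different numbers correlated at -0.174 to 0.118 (median -0.0405), and 9 of 12 cultures correlated best with one of their own number. The main model did not pair cultures by number, and whether they were paired was not tested. After median scaling the share of higher calls between Ndst1/2-/- and chlorate was 60% in place of 49.8%. Probes near the detection limit (Tm7sf2, Srebf1, Fasn) carry the least signal over background.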
